A study of Glycine max with 8 samples.

Results

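The regions described here are 1581 sites of a soybean WOX9-like protein that were called in both libraries of globular-stage seeds and in neither library of heart-stage seeds, and that were strong in globular replicate 1 and weak in globular replicate 2. They came from chromatin immunoprecipitation followed by sequencing (ChIP-seq) of soybean (Glycine max) seeds, taken whole from the cultivar Williams 82. Globular embryos came in seeds 1.0 to 1.5 mm long, and heart-stage embryos in seeds 1.7 to 2.1 mm long. Each stage had 2 ChIP libraries, made with a rabbit polyclonal antibody against a peptide of the protein, and 2 input libraries without antibody. No genotype or treatment separated the groups, which differed by stage and by ChIP or input. Peaks of different libraries were joined where the overlap covered 50% or more of the shorter one, which gave 75046 regions, and the 1581 make up 2.11% of them. The members were chosen by fold enrichment, the authors' value for each peak: their best peak lay in the top 25% of the list of globular replicate 1 and in the weaker 50% of the list of globular replicate 2. These ranks and the missing heart calls chose the regions, so they are given as a description, and a site without a call may still have been bound.

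WOX proteins (WUSCHEL-related homeobox) are plant transcription factors that bind DNA through a homeodomain. In Arabidopsis, WOX9 and its close relative WOX8 are known for their part in patterning the early embryo, and WOX9 also for keeping shoot meristem cells dividing. A globular embryo has not yet formed cotyledons, while a heart-stage embryo has begun to form them. A ChIP-seq peak marks a stretch of chromatin that the antibody enriched over the local background, and its summit is the position of the highest read pileup. Whole seeds hold seed coat and endosperm beside the embryo, so no peak can be assigned to one of these tissues.

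Some properties of the lists bear on every value below. There were 46027 peaks in the list of globular replicate 1 and 44581 in that of replicate 2, and the heart lists had 60537 and 50579. Read totals are not given, but the fold and p of a peak imply the pileup and the local background behind them under the formulas of the peak caller. The floor of that background, taken as its 0.5 percentile over regions, was 4.34 reads in globular replicate 1 and 15.2 in globular replicate 2, a ratio of 3.49. The peak names of globular replicate 2 carry the words BR1 and Input, which no label explains, so the control behind its folds is not known. Whether replicates are separate plants is not stated in the labels, so differences between them may be technical. Sites were not assigned to genes, because the genome build of the lists is not named.

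The first question was how often sites with this pair of globular ranks had a heart-stage call. Of the 32967 regions called in both globular libraries, 3469 (10.5%) were called in neither heart library. Among the 2728 regions with the ranks of the members, strong in replicate 1 and weak in replicate 2, it was 1581 (58.0%). Regions with the opposite ranks, in the top 25% of replicate 2 and the weaker 50% of replicate 1, numbered 1524, and 5 of them (0.328%) were called in neither heart library. Sites that only globular replicate 1 ranked high were thus often missing from the heart lists, and sites that only globular replicate 2 ranked high were almost always in them. The heart calls were part of the rule, and nothing is tested with these counts. The 1581 regions make up 45.6% of all globular-only regions, against 5 with the opposite ranks.

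**Figure D1:**
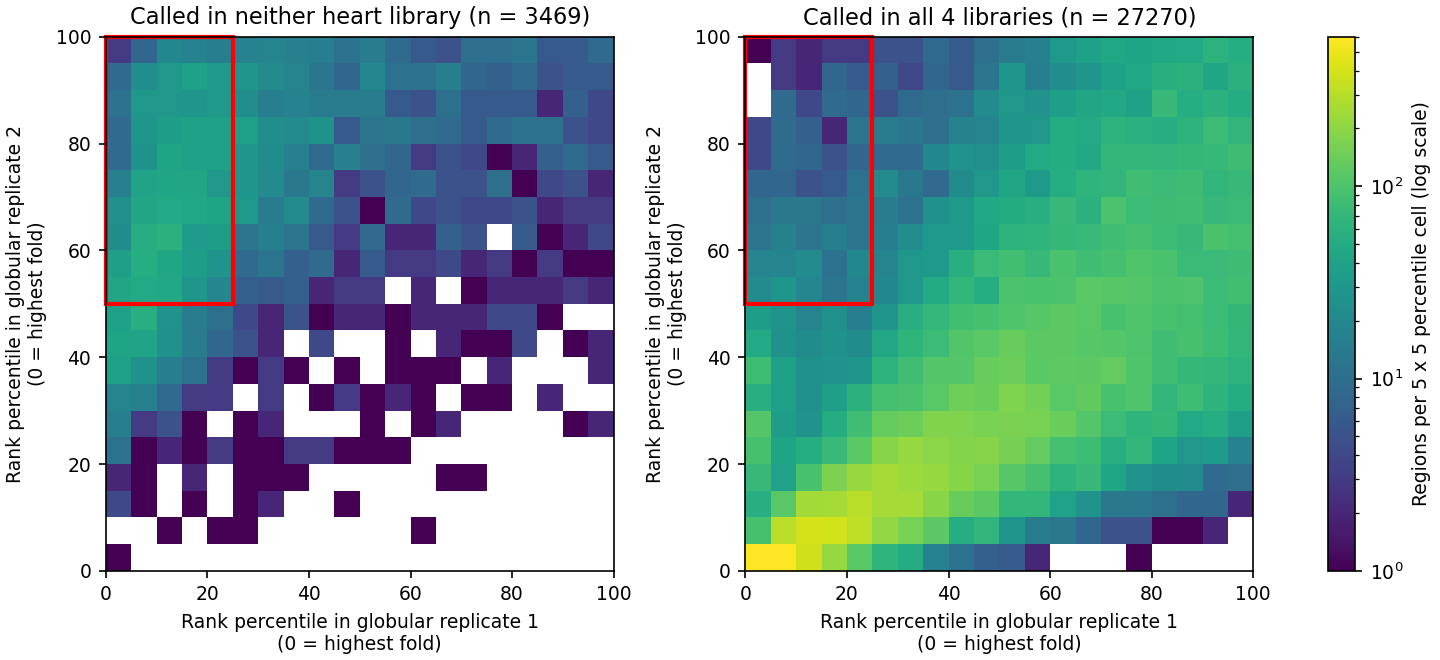
Number of regions by rank percentile in globular replicate 1 (horizontal) and globular replicate 2 (vertical), where 0 is the highest fold, for the 3469 regions called in neither heart library and the 27270 called in all 4 libraries; colour gives the number per cell on a log scale, and the red box marks the rank limits. The box holds 1581 (45.6%) of the globular-only regions and 477 of the 27270 regions of all 4 libraries, which spread broadly around the diagonal.

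The share called in neither heart library changed in steps across the ranks. Among regions in the top 10% of both globular lists it was 0.0574% of 1742. With replicate 1 still in the top 10%, it was 24.8% where replicate 2 lay between the 25th and 50th percentile, 50.1% between the 50th and 75th, and 54.5% beyond the 75th. Where replicate 1 lay between the 10th and 25th percentile, the share was 67.5% in the weakest 25% of replicate 2. Within this weakest 25% of replicate 2 the share was still 52.5% where replicate 1 lay between the 25th and 50th percentile, outside the limit of the rule, and then 17.6% between the 50th and 75th and 9.10% beyond. High shares thus reached past the top 25% of replicate 1.

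The remaining 1147 regions with the same globular ranks had a heart peak, and most of these heart peaks were weak. Both heart libraries called 477 of them, heart replicate 1 alone called 573 and heart replicate 2 alone called 97. The 477 had a median rank percentile of 63.2 in heart replicate 1 and 74.0 in heart replicate 2, with a median fold enrichment of 4.13 and 3.72. In the 27270 regions of all 4 libraries the medians were 23.6 and 28.6, with a fold of 8.31 and 7.03. The 573 had a median percentile of 82.1 in heart replicate 1, and 99.1% of them lay in the weaker 50% of that list. Regions with the opposite ranks lay in the weaker 50% of heart replicate 1 in 2.90% of cases. Among the 477, 69.0% ranked in the weaker 50% for heart replicate 1 and 6.50% in its top 25%. For heart replicate 2 these shares were 81.3% and 3.14%. The 477 thus leaned to the weak side, while sites with the opposite ranks were near the strong end, with medians of 17.9 and 21.2. The rule did not use the rank of a heart peak. However, the 573 were picked by a missing call in heart replicate 2, which favours weak peaks, so their 99.1% says little by itself. Regions matched on the rank in globular replicate 2 alone were not compared, so the part of that rank was not tested. Ranks are compared within each list, and with 2 libraries per stage no test was made.

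**Figure D2:**
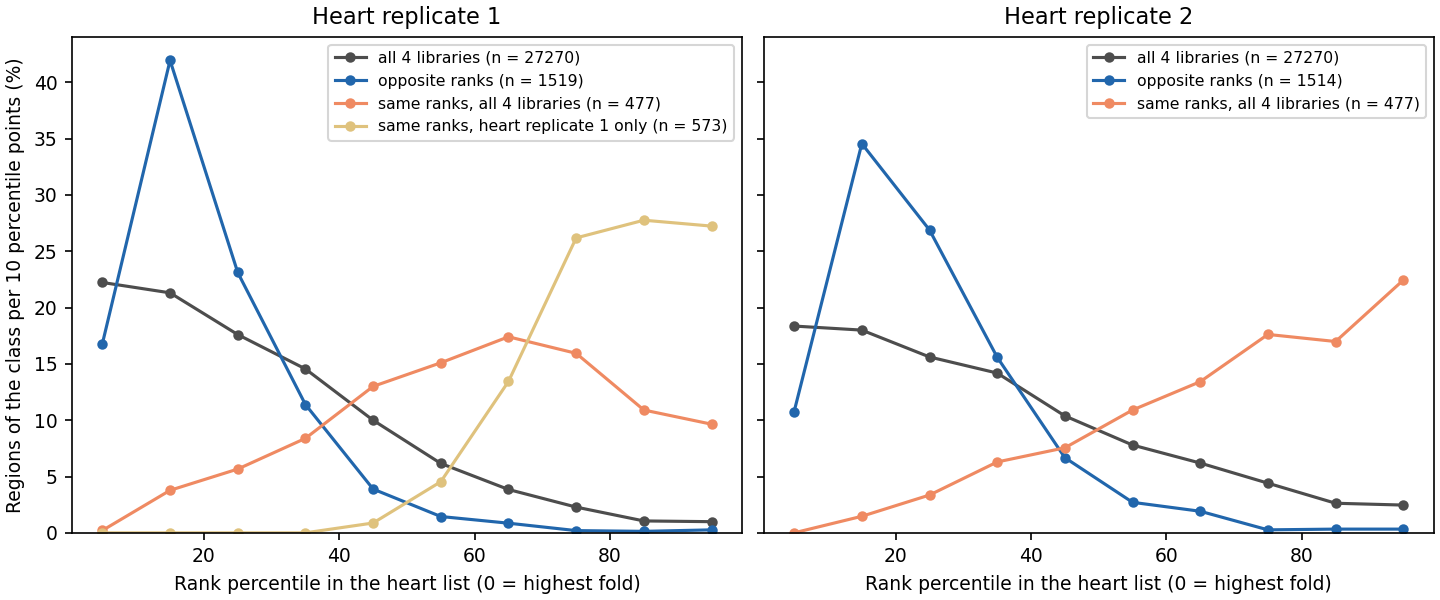
Share of the regions of a class (percent) by their rank percentile in heart replicate 1 (left) and heart replicate 2 (right), in steps of 10 points, where 0 is the highest fold. Regions with the opposite globular ranks peak between the 10th and 20th percentile, and regions with the members' ranks that had a heart peak lie mostly in the weaker 50%, with medians of 63.2 and 82.1 in heart replicate 1.

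All members were well above the weakest calls of the list in globular replicate 1, and most were in globular replicate 2. Their lowest −log10 q was 26.5 in replicate 1 and 2.50 in replicate 2, where the lists began at 2.04 and 2.00. Fold enrichment in globular replicate 1 ran from 8.25 to 22.6 with a median of 10.8 and quartiles of 9.39 and 12.8. In globular replicate 2 it ran from 1.87 to 3.63 with a median of 2.98 and quartiles of 2.66 and 3.26. The ranges do not overlap, but the folds rest on different backgrounds and serve only to rank sites within a list. The median −log10 q was 47.2 in replicate 1 and 10.5 in replicate 2, where 43 members (2.72%) were under 5. The weak calls of replicate 2 were therefore weak within their list and mostly not at its threshold.

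The recovered pileups show what lay behind the ranks. A member had a median of 68 reads at the summit in globular replicate 1, with quartiles of 59 and 81, over a local background of 5.02 reads. In globular replicate 2 it had 56 reads, with quartiles of 50 and 61, over a background of 17.8. Regions called in all 4 libraries had 36 reads over 5.18 in replicate 1 and 86 reads over 17.8 in replicate 2. The backgrounds of the members were thus close to those of regions of all 4 libraries in both globular libraries, and the pileups differed in opposite directions. Other classes varied more in the median background of replicate 2. It was 19.8 in the 477 regions with the same ranks and both heart calls and 19.1 in the 573 called in heart replicate 1 alone. In the other globular-only regions it was 17.0. The part of the background in the ranks was not tested. The pileup of replicate 2 was below that of replicate 1 in 85.3% of the members, although the background floor of replicate 2 was higher. In regions of all 4 libraries this was so in 3.93%. The reads above background in replicate 2 were a median 0.588 times those of replicate 1 in the members and 2.31 times in regions of all 4 libraries. The 477 regions with the same ranks and both heart calls had a ratio of 0.641, near that of the members. Pileups restate the fold that chose the members, so these values are a description.

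**Figure D3:**
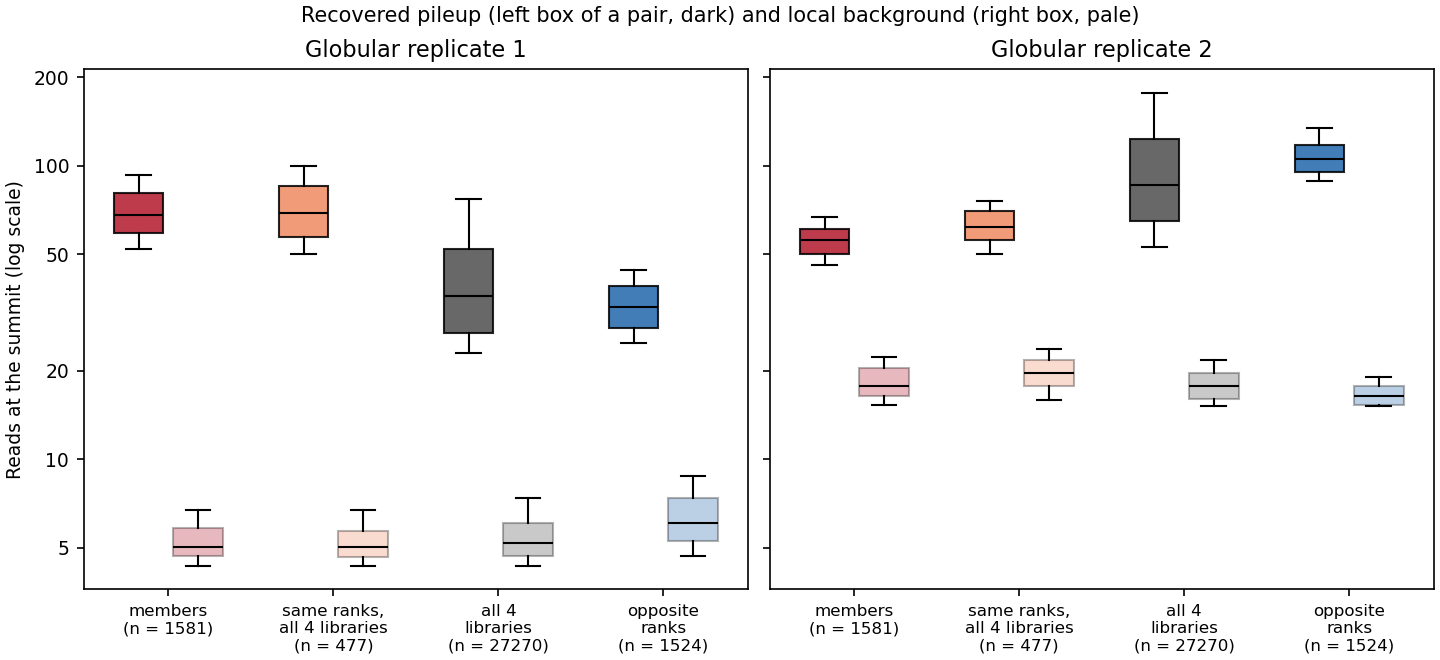
Reads at the summit (pileup, dark boxes) and local background (pale boxes), recovered from fold and p, on a log axis in globular replicate 1 (left) and 2 (right); boxes are quartiles with the median, and whiskers span the 10th to 90th percentile of regions. The median pileup of members is 68 in replicate 1 against 56 in replicate 2, and that of regions of all 4 libraries is 36 against 86. The median backgrounds of these classes lie close together within a library.

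The 10 members with the highest fold in globular replicate 1 show the pattern site by site. The first, on chromosome 1 from 52757707 to 52758288, had a fold of 22.6 in the first library, globular replicate 1, and of 2.90 in globular replicate 2. Its summit carried 125 reads over a background of 4.56 in replicate 1, and 61 reads over 20.4 in replicate 2. It ranked at percentile 0.652 in the first list and 73.6 in the second, and the nearest heart summit was 1241 bp away. The second, on chromosome 20 from 40597740 to 40599008, was 1269 bp long with a fold of 22.6 and 2.92 in replicates 1 and 2. The third, on chromosome 19 from 34600931 to 34601445, had a fold of 21.9 and 3.57. Both were over 2000 bp from a heart summit, at 2646 bp and 2887 bp.

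Chromosome 8 held the fourth (12933660 to 12934579, fold 21.1 and 3.55) and the fifth (6100427 to 6100922, fold 20.7 and 3.08). The fifth lay 704 bp from a summit of heart replicate 2 that ranked at percentile 69.1, and it did not overlap that peak. The sixth was on chromosome 1 (23680366 to 23681214, fold 20.4 and 3.27) and the seventh on chromosome 13 (25671662 to 25672240, fold 20.4 and 3.04). Chromosome 11 held the eighth (3851619 to 3852193, fold 20.02 and 3.15) and the ninth (30723896 to 30724398, fold 19.6 and 3.50), and the last of the 10 was on chromosome 9 (28380070 to 28380627, fold 19.6 and 3.55). The seventh and the ninth were isolated, with the nearest heart summit 21243 bp and 23722 bp away. None of the 10 touched a heart peak, and their globular summits lay 6 to 65 bp apart.

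The members with the widest gap in rank were weaker still in replicate 2. On chromosome 5 from 2065663 to 2066206 the fold was 19.2 in replicate 1, at percentile 1.64, and 2.23 in replicate 2, at percentile 96.1. Its pileup was 105 reads in replicate 1 and 57 in replicate 2, where the background was 25.02. On chromosome 14 from 47590329 to 47591334 the percentiles were 2.79 and 95.7. The next widest gap, 92.8 percentile points, was on chromosome 3 (34648865 to 34649420). A member on chromosome 18 (3698876 to 3699499) and another on chromosome 16 (6742520 to 6743026) followed with 92.03 and 92.02 points. In all 5 the background of replicate 2 was above the members' median of 17.8, between 21.7 and 28.3 reads.

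The limits of the rule did not fall at a break in the values. Just inside the limit of replicate 1 were regions on chromosome 19 (923512 to 924027), chromosome 2 (1440457 to 1441058) and chromosome 18 (50309777 to 50310287), each with a fold of 8.25. Just outside it were regions on chromosome 8 (9836795 to 9837342, fold 8.24), chromosome 9 (42988660 to 42989143, fold 8.24) and chromosome 10 (5235158 to 5235554, fold 8.23). At the limit of replicate 2, the members on chromosome 8 (13522242 to 13522975), chromosome 2 (12000825 to 12001367) and chromosome 1 (54155549 to 54156101) had a fold of 3.63, 3.62 and 3.62. The 3 regions just outside it were all on chromosome 2 (37784573 to 37785102, 2473583 to 2474076 and 25968571 to 25968979), each with a fold of 3.63.

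Nearly all members held a single peak of each globular library, as did the classes most like them. None of the 1581 had more than 1 peak of globular replicate 1, and 9 had more than 1 of replicate 2. In replicate 1 this was so for 4 of the other 1888 globular-only regions, 2 of the 573 regions of the same ranks called in heart replicate 1 alone and 0 of the 97 called in heart replicate 2 alone. It was 2.73% in the 477 regions with the same ranks and both heart calls and 7.90% in regions of all 4 libraries. Their median peak width was 514 bp in replicate 1 (quartiles 463 and 578) and 338 bp in replicate 2 (quartiles 303 and 384). The 573 regions measured 554 bp and 368 bp, and the 477 regions 600 bp and 442 bp. Regions of all 4 libraries were narrower in replicate 1, at 471 bp, and wider in replicate 2, at 569 bp. The summit of a member lay off the middle of its peak in replicate 1 by a median of 4.34% of the width. This offset was 4.26% in the 97 regions, 5.17% in the 573, 5.39% in the other globular-only regions, 6.46% in the 477 and 8.14% in regions of all 4 libraries, so it was not smallest in the members. Width rises with strength within a list, so widths follow in part from the rule.

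The globular summits of a member coincided closely although one of the peaks was weak. They lay a median of 27 bp apart (quartiles 13 and 48), within 50 bp in 77.3% of members and over 100 bp apart in 4.11%. Regions of the same ranks with a single heart call were close to this, with a median of 28 bp in the 97 called in heart replicate 2 and 30 bp in the 573 called in heart replicate 1. In the other globular-only regions it was 33 bp. In the 477 regions with the same ranks and both heart calls the median was 39 bp, and 21.2% were over 100 bp apart. In regions of all 4 libraries the median was 38 bp, with 15.4% over 100 bp apart. With a single peak from each globular library the medians were 27 bp in the members and 38 bp in both the 477 regions and those of all 4 libraries. The distance between summits was not used by the rule beyond the overlap that joined the peaks. Peak width limits how far apart joined summits can lie, and the members were narrow in replicate 2. Their median there was 338 bp, against 442 bp in the 477 regions and 569 bp in regions of all 4 libraries. The part of width in the summit distances was not tested. Regions of the same libraries are not replicates, and no test of the difference was made.

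The stronger members were somewhat wider and their summits slightly closer. In the strongest 395 by fold in replicate 1 (12.8 to 22.6), the median width in replicate 1 was 564 bp and the summits were 24 bp apart. In the weakest 396 (8.25 to 9.38) these values were 480 bp and 30 bp. The median fold in replicate 2 was 3.10 in the strongest 395 and 2.85 in the weakest 396, a small difference beside that in replicate 1. Across the 1581 members the Spearman correlation of fold between the globular libraries was 0.21, against 0.661 over the 27270 regions of all 4 libraries. The correlation of pileups was 0.482 in the members and 0.749 in regions of all 4 libraries. These correlations run across sites of the same libraries, and the rule narrows the range of the first, so they are descriptions only. The distance to the nearest heart summit showed almost no relation to fold in replicate 1 (rho 0.0307).

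Heart peaks were found around the members, but rarely on them. A peak of heart replicate 1 touched 24 members by less than the overlap that joins peaks, a peak of heart replicate 2 touched 12, and 27 members (1.71%) were touched in all. The nearest heart summit was a median of 2617 bp away (quartiles 1381 and 5644). It lay within 1000 bp of 13.6% of members, within 5000 bp of 71.8% and within 20000 bp of 96.2%. The other 1888 globular-only regions had a like distance, with a median of 2610 bp. The closest was a member on chromosome 5 (34078556 to 34079457), whose summit lay 144 bp from a summit of heart replicate 1 at percentile 98.3 of that list, near its weakest end. Next were members on chromosome 12 (15285230 to 15285642), 251 bp from a summit of heart replicate 2, and on chromosome 2 (1231831 to 1232308), 255 bp from a summit of heart replicate 1. These 3 touched a heart peak and count as globular-only by the overlap rule alone.

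The nearest heart peak of a member was most often in a region of all 4 libraries. It belonged to a region of all 4 libraries for 708 members (44.8%), while 51.8% of all heart peaks belong to such regions. It was a peak of heart replicate 1 alone for 260 members (16.4%), against 9.08% of all heart peaks, and of both heart libraries without a globular call for 220 (13.9%), against 16.8%. A site called in both heart libraries enters the shares of all heart peaks with a peak from each library, but is a single site near a member. The shares of members and of all heart peaks are thus not on a like basis, and no excess or lack is read from them. The nearest region of all 4 libraries was a median of 5426 bp away, and 47.2% of members had one within 5000 bp. For the 477 regions with the same ranks and both heart calls, 49.1% had another such region within 5000 bp, and for regions of all 4 libraries it was 58.4%. The members were thus about as far from the sites common to both stages as were regions of the same globular ranks with heart calls, and lay farther from them than these sites lay from each other.

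**Figure D4:**
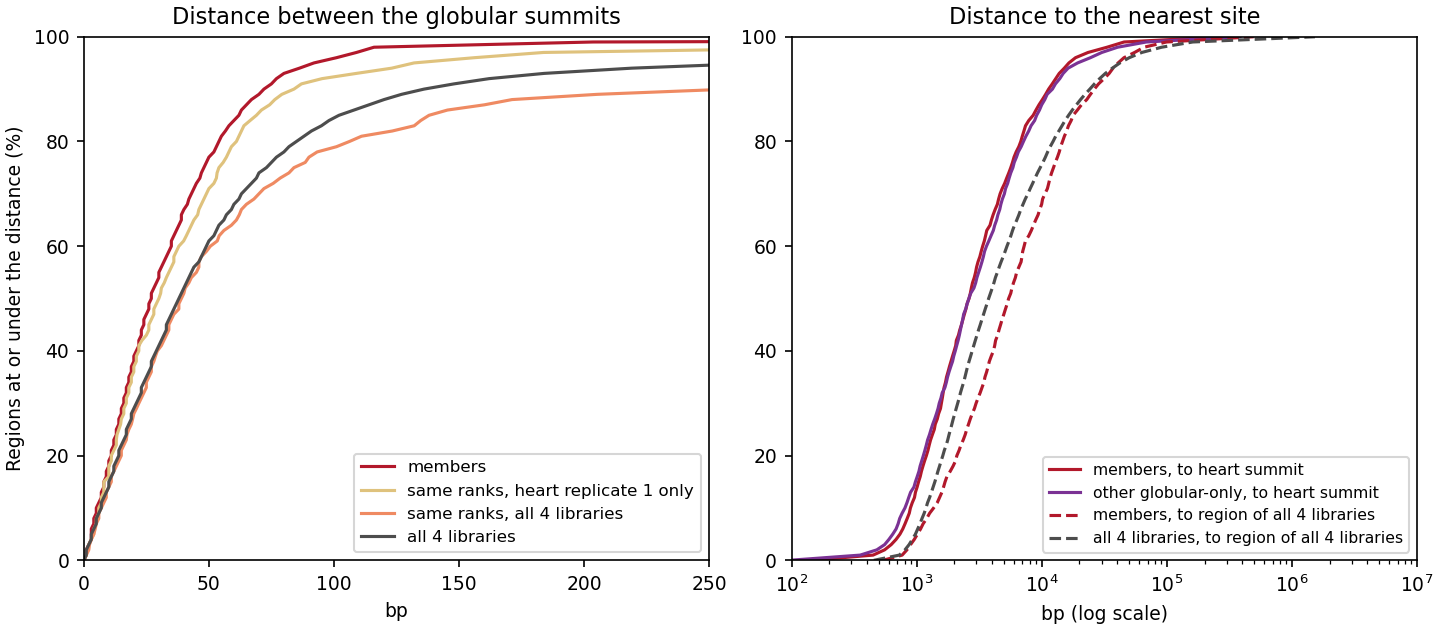
Cumulative share of regions (percent) by the distance in bp between their globular summits (left) and by the distance to the nearest heart summit (solid) or to the nearest other region called in all 4 libraries (dashed) on a log axis (right). The summits of members lie a median of 27 bp apart, near the 30 bp of regions of the same ranks called in heart replicate 1 alone and below the 38 and 39 bp of the classes called in all 4 libraries, and members lie as far from heart summits as the other globular-only regions do, with medians of 2617 and 2610 bp.

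Most members had no other member within 20000 bp, but they were spread unevenly along the chromosomes. No count expected under even spacing was set beside the values below. The nearest other member was a median of 110217 bp away, and 1369 of 1581 had none within 20000 bp. The others formed 94 pairs and 8 groups of 3. Of these 8, the group holding the highest fold in replicate 1 was on chromosome 18 from 1889797 to 1915415. Its members had folds of 11.3, 17.7 and 11.8 in replicate 1 and of 3.53, 3.41 and 3.19 in replicate 2, in order along the chromosome. The tightest of the 5 groups with the highest folds held 3 members in 2229 bp, on chromosome 14 from 7731516 to 7733744. Of 956 windows of 1 Mb, 449 held no member and 114 held 5 or more. The fullest held 13 members, on chromosome 12 between 36 and 37 Mb, with 85 regions of all 4 libraries in the same window. The widest member was on chromosome 17 (9323706 to 9325242), where the globular summits lay 950 bp apart, and the next were on chromosome 20 (46740360 to 46741662) and chromosome 12 (4599067 to 4600342).

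All 20 chromosomes held members, and 8 members (0.506%) lay on unplaced scaffolds. Their density ranged from 1.16 per Mb on chromosome 14 to 2.29 per Mb on chromosome 13, with a mean of 1.68 ± 0.395 (SD, n = 20 chromosomes). Regions of all 4 libraries were likewise densest on chromosome 13. Relative to these, chromosome 5 had the most members, 75.6 per 1000 regions of all 4 libraries, followed by chromosome 12 with 73.01, and chromosome 9 had the fewest with 49.8. The mean was 58.2 ± 7.03 (SD, n = 20 chromosomes). Among regions with the members' globular ranks, the share called in neither heart library was 58.03% ± 4.58 (SD, n = 20 chromosomes), from 49.2% on chromosome 20 to 66.3% on chromosome 14. Every chromosome thus carried the pattern.

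Members lay toward the chromosome ends. In the outer 20% at either end, together 40% of the extent of a chromosome, lay 74.5% of the members, while the sixth of 10 equal parts held 1.97%. Over chromosomes the mean share in the outer part was 75.5% ± 11.7 for members and 71.3% ± 10.9 for regions of all 4 libraries (SD, n = 20 chromosomes). The difference was 4.26 ± 4.61 points, with members higher on 18 of 20 chromosomes. Regions with the same globular ranks called in all 4 libraries had a mean of 76.2% ± 13.9, from which the members differed by -0.68 ± 7.74 points, being higher on 10 of 20. The outward position was thus as marked in sites of these ranks with heart calls as in those without. The share was lowest on chromosome 13, where 42 of 105 members lay in the outer part, and highest on chromosome 4 with 95.7%. Chromosomes of the same 4 libraries are not replicates of a stage, so these spreads describe the genome and no p is given. Gene density and input reads along the chromosomes were not compared.

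**Figure D5:**
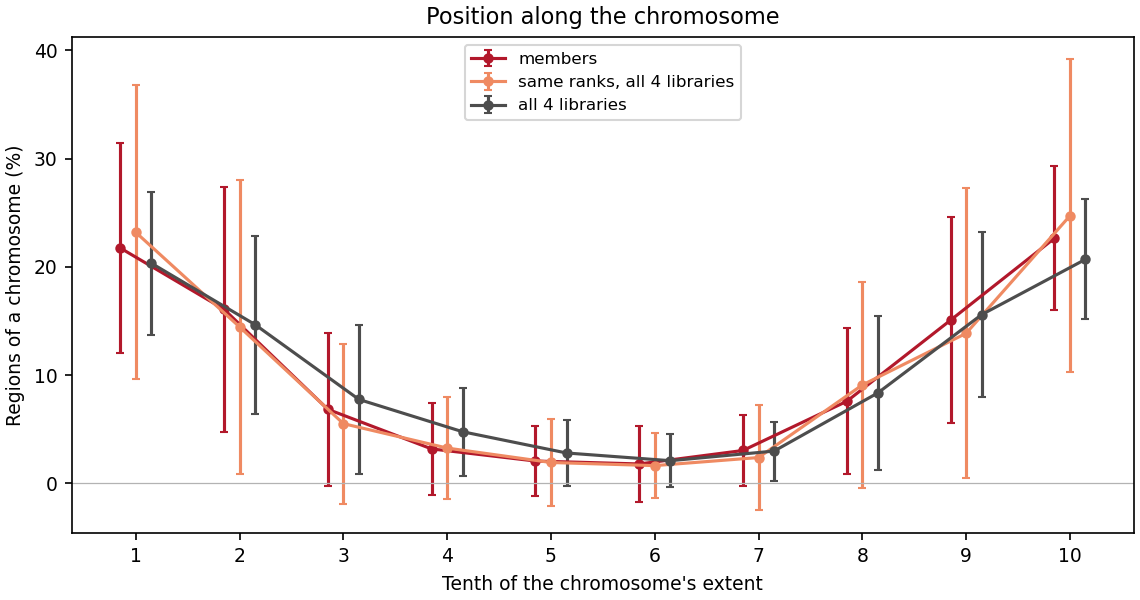
Mean share of a chromosome's regions (percent) in each of 10 equal parts of its extent, with SD over 20 chromosomes as error bars, for members, for regions of the same globular ranks called in all 4 libraries and for all regions called in all 4 libraries. The classes follow the same course, high in the outer parts and lowest in the middle, and the error bars overlap in every part.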

How the data were processed

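ChIP-seq peak lists of the 4 ChIP libraries were used, 1 per library and not pooled, and no list of the 4 input libraries was used. The submitters' processing notes name Bowtie (0.12.7), the peak caller MACS2 and SAMtools (0.1.18). Not given in the sources used here are their settings, the build, the controls and the threshold of the calls. In the deposited lists the fold column is a ratio, the enrichment at the summit over local background, and further deposited columns give −log10 p, −log10 q and a score derived from q. Positions are those of the lists, counted from 1. A reference gene table of another or unknown build was not used here, and no sequence was read.

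A rank percentile is the percent of peaks of the same list with a higher fold. Pileup and background were recovered from fold and p under the published formulas of the caller (pseudocount 1). In both globular libraries all members gave whole pileups (tolerance 0.002 in −log10 p). The recovery assumes that those formulas were used. Extents of chromosomes end at the last base with a peak. Computations used scipy 1.17.1, pandas 2.3.3 and numpy 2.4.6 under Python 3.11.15, and were tested on simulated data.

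Named regions are the 10 with the highest fold in globular replicate 1, the 5 with the widest rank gap, the 3 on each side of each limit, the 3 closest to a heart summit, the 3 widest and the fullest cluster, where 8 were tied at 3 members and the one with the highest fold in globular replicate 1 was taken. The densest window and the tightest group were chosen after their values were seen. The members and comparison classes were chosen with earlier results of these data known. No test was made: the rule used the ranks and calls, and regions are not replicates.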

Additional observations from a re-analysis of the deposited data

How the results depend on the processing

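No paired analysis was possible because no result comes from a test. Neither globular library could be left out, since the rule needs both. Spread here is the SD over 20 chromosomes. The number of members, 1581, was 1531 to 1781 under other overlaps, other ranking columns and a −log10 q of at least 5. Ranking by −log10 p gave 1621, of which 1451 were among the 1581. The number was 2169 without heart replicate 1 and 1680 without heart replicate 2, 2311 with the top 50% of replicate 1, and 533 with its top 10%. The share in the outer part stayed above that of regions of all 4 libraries by 3.35 to 5.09 points under every alternative, and the difference from regions of the same ranks ran from -3.52 to 2.96 points. Some medians moved by more than their spread. Ranking by −log10 p or q gave a background of 5.28 in globular replicate 1, and the −log10 q minimum in every list gave a pileup of 71 there. Leaving out heart replicate 1 gave a nearest heart summit at 3263 bp and a background of 18.4 in globular replicate 2. It was 2617 bp with both heart libraries and 2700 bp without heart replicate 2. The background of globular replicate 2 was 17.8 with both and 17.998 without heart replicate 2. With the top 10%, widths were 552 and 350 bp, pileups 83 and 60, and backgrounds 4.83 and 19.1 in globular replicates 1 and 2. With the weaker 75% of replicate 2, its width was 353 bp and pileups were 72 and 59. With the top 50%, the width in replicate 1 was 495 bp, its background 5.30, and pileups 61 and 54. Measured edge to edge, the nearest heart peak was 2049 bp away. A region of all 4 libraries lay within 2000 bp of 18.7% and within 10000 bp of 68.1% of members. Without the pseudocount the pileups were 75 and 59 and the backgrounds 6.56 and 19.6, but then 0.569% and 3.04% of members gave a whole pileup.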

Other observations

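A further 923 regions lay in the top 25% of globular replicate 1 and were called in no other library. They resembled the members in shape, with a median width of 462 bp, a summit off the middle of the peak by 3.65% of the width and no region with more than 1 peak. Their median fold in globular replicate 1 was 9.54, against 10.8 in the members, and their median pileup was 56 reads over a background of 4.73. The nearest heart summit was a median of 3205 bp away, and 71.7% lay in the outer 20% at either chromosome end.

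Regions with the opposite globular ranks, 1524 in all, were called in all 4 libraries in 99.3% of cases. They had a median of 33 reads at the summit in globular replicate 1 and 105 in globular replicate 2, and 67.6% lay in the outer part of a chromosome.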
